A study of Mus musculus with 6 samples.

Results

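Potassium channel genes were followed in 410.4 cells, a mouse mammary carcinoma cell line, after 2 days in medium conditioned with neutrophil extracellular traps (NETs) or in control medium. All rows of the deposited count table whose symbol starts with Kcn and a further lower-case letter were taken, which gave 99 rows of 55809. Activated neutrophils cast out NETs, sticky strands of chromatin loaded with the enzymes of their granules. The NET group held 3 libraries of cells in medium into which NETs had been collected, and the vehicle (VEH) group held 3 libraries of cells in the same basal medium without them. Both media were DMEM with 0.5% serum, and both groups came from this single cell line with no genetic change named in the labels. The labels do not say whether libraries of a group came from separate cultures, so each p-value measures only how far these libraries scatter, and that scatter may be technical. The number of counts per library ran from 31119105 to 64431811.

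Potassium channels let potassium ions leave the cell along their gradient and so hold the membrane potential negative, which sets the driving force for calcium entry and takes part in the control of cell volume and the cell cycle. Voltage-gated subunits open on depolarisation, calcium-activated subunits open when cytosolic calcium rises, inward rectifiers pass current best at negative potentials, and tandem-pore-domain (leak) subunits conduct at rest. Auxiliary subunits form no pore and change the gating or surface level of those that do. In epithelial and carcinoma cells the leak and calcium-activated classes are known for their part in salt secretion, volume control and migration.

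By symbol, 77 of the 99 rows were pore-forming subunits: 40 voltage-gated, 8 calcium- or sodium-activated, 15 inward rectifiers and 14 of the tandem-pore-domain class. A further 17 were auxiliary or interacting proteins. The last 5 rows were not subunits at all but noncoding genes named after a neighbouring channel gene (Kcnq1ot1, Kcnab3os, Kcnd3os, Kcnmb4os1 and Kcnmb4os2). Coding sequences were read beside these classes as a description. The pore of every potassium channel is lined by the selectivity filter, a short stretch built around a glycine, an aromatic residue or leucine, and another glycine. With threonine alone as the first residue of the signature, 66 of the 77 pore-forming genes held a match in the longest reading frame of their GENCODE M21 transcripts. Serine was then allowed as well, a widening made after seeing the data, and all 77 held at least 1 match, Kcnn1, Kcnh2 and Kcnj14 only through serine among the tested genes. The 17 auxiliary genes held 0 with either form. With serine allowed, all 14 tandem-pore-domain genes held 2 matches against 1 match in 61 of the other 63 pore-forming genes and 2 in the other two.

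The stretch is shown for 5 of the channels described below, because it is what makes each of them a potassium pore. Capitals mark the 15 bases of the 5 filter codons, read 5′ to 3′ on the coding strand, with 9 bases on either side, as GENCODE M21 gives them, and for the tandem-pore genes Kcnk1, Kcnk2 and Kcnk5 the match of the first and of the second pore loop is given in turn. For Kcnh2 the second of its 2 matches is shown, at codons 626 to 630.
Kcnk1 first loop: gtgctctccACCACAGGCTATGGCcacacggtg
Kcnk1 second loop: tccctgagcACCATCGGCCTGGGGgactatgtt
Kcnk2 first loop: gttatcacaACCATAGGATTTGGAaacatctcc
Kcnk2 second loop: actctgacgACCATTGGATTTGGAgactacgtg
Kcnk5 first loop: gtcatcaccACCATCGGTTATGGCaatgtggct
Kcnk5 second loop: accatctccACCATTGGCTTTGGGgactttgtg
Kcnn1: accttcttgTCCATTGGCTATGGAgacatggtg
Kcnh2: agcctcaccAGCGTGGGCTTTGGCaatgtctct

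Most of these genes had no detectable message at this depth. Of the 99 rows, 45 had at least 1 count in any library and 54 had 0 counts in all 6. A count of 0 allows up to 3 read pairs, taken as 6 counts because both mates of a pair appear to have been counted, which is 0.0931 to 0.193 CPM (the usual per-library scaled count) depending on the library, and this limit covers counting error only. In 25 rows at least 1 library had more than 6 counts. The filter on low counts, edgeR's filterByExpr with a minimum of 10, left 15 rows, of which 14 were subunits and 1 was the noncoding Kcnq1ot1. All of these but Kcnj14 passed the filter's cutoff of 0.203 CPM in all 6 libraries, so they did not enter through 1 group alone.

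By class, the tandem-pore-domain class had 8 of 14 genes with a count and 4 tested, and the calcium- or sodium-activated class had 4 of 8 and 2. Of 40 voltage-gated genes 15 had a count and 5 were tested, and of 15 inward rectifiers 6 had a count and 1 was tested. Among 17 auxiliary genes 10 had a count and 2 were tested. Genes with 0 counts throughout included Kcnma1, which encodes the large-conductance calcium-activated pore, all 4 of its Kcnmb beta subunits, and Kcnj2, a classical inward rectifier.

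**Figure D1:**
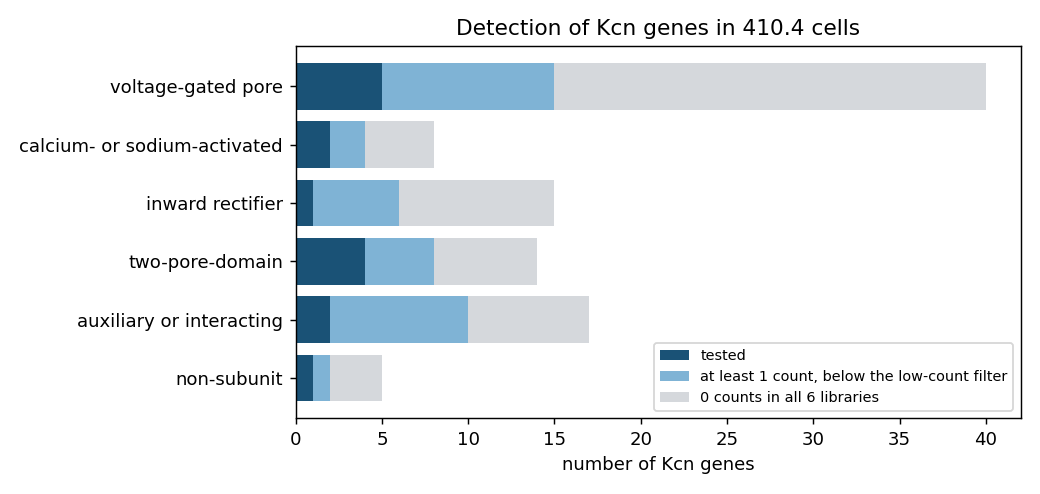
Number of Kcn genes in each class (horizontal axis), split into tested genes, genes with at least 1 count below the low-count filter, and genes with 0 counts in all 6 libraries. The voltage-gated class was the largest with 40 genes, of which 25 had 0 counts, while 4 of 14 tandem-pore-domain genes (labelled two-pore-domain) were tested.

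A pair of genes held most of the potassium channel message. Compared per kilobase of exon, so that genes of unequal length can be set side by side, Kcnk1, a leak channel subunit, stood highest with 57.0 ± 0.349 CPM per kb in NET libraries and 56.9 ± 2.19 CPM per kb in VEH libraries (mean ± SD, n = 3 each). Kcnn4, the intermediate-conductance calcium-activated channel of epithelial cells, lymphocytes and red cells, was next with 28.6 ± 0.327 CPM per kb in NET and 25.6 ± 1.56 CPM per kb in VEH libraries. Together they made up 85.6% to 86.7% of the summed level per kb of all 99 rows in NET libraries and 78.8% to 80.8% in VEH libraries. The sum itself ran from 98.4 to 100.2 CPM per kb in NET libraries and from 99.2 to 104.9 CPM per kb in VEH libraries, ranges that overlap.

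Kcnk5 followed at 6.50 ± 0.289 CPM per kb in NET and 9.55 ± 0.531 CPM per kb in VEH libraries, and then Kcnk2 at 1.76 ± 0.211 CPM per kb in NET and 4.85 ± 0.374 CPM per kb in VEH libraries. Libraries of neighbours in this order did not overlap down to rank 5 in NET libraries (Kcnk6) and down to rank 7 in VEH libraries (Kcnab3). The lowest of the tested rows was Kcnq1ot1, with 0.0173 CPM per kb in NET and 0.0125 CPM per kb in VEH libraries.

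**Figure D2:**
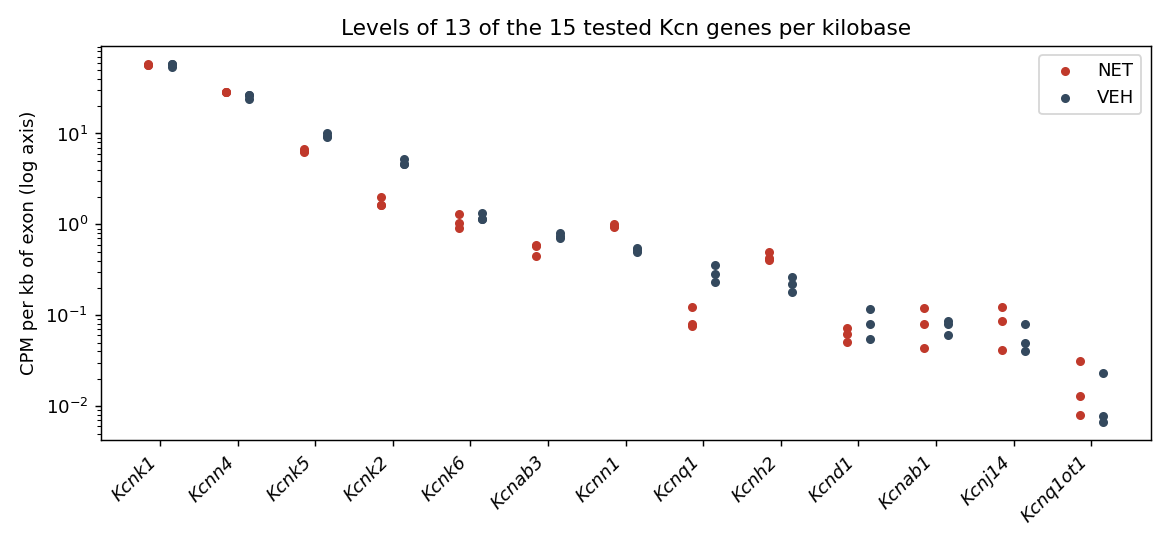
Level of 13 of the 15 tested Kcn rows per kilobase of exon (CPM per kb, log axis), a point per library, NET libraries left of VEH libraries, genes ordered by their mean in VEH libraries. Kcnk1 and Kcnn4 stood above all others, and the NET points of Kcnk5, Kcnk2 and Kcnq1 lay below the VEH points.

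The comparison of the media asked which potassium channel genes changed when the cells were kept with NETs. Of the 15 tested rows 3 rose (Kcnn4, Kcnn1 and Kcnh2) and 4 fell (Kcnk2, Kcnk5 and Kcnq1 among them) at an adjusted p under 0.05 (edgeR's quasi-likelihood F test, Benjamini-Hochberg over all 13956 tested genes). The 7 calls were 46.7% of the Kcn rows, where 38.9% of all tested genes were called (20.2% rose and 18.7% fell), so the share that changed was near that of the whole table. In bulk RNA, fewer cells that express a gene and less of its RNA per cell cannot be told apart. By at least 2-fold, 0 Kcn rows rose and 3 fell, where 3.65% and 2.31% of all tested genes did. The median log2 fold change of the 15 rows was 0.00, as was that of all tested genes (-0.00), and the median size of change without its sign was 0.47 against 0.19. The 0.47 was the value of Kcnab3, which did not pass. Standard errors of the 15 rows ran from 0.0475 (Kcnk1) to 0.679 (Kcnq1ot1), and several rows rest on few counts. Genes of like level were not compared, so these medians do not show that Kcn genes changed more than others. At 9 of the 15 rows, 60.0%, all NET libraries lay on one side of all VEH libraries in CPM (4 above and 5 below), against 49.0% of all tested genes (24.4% above and 24.5% below).

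**Figure D3:**
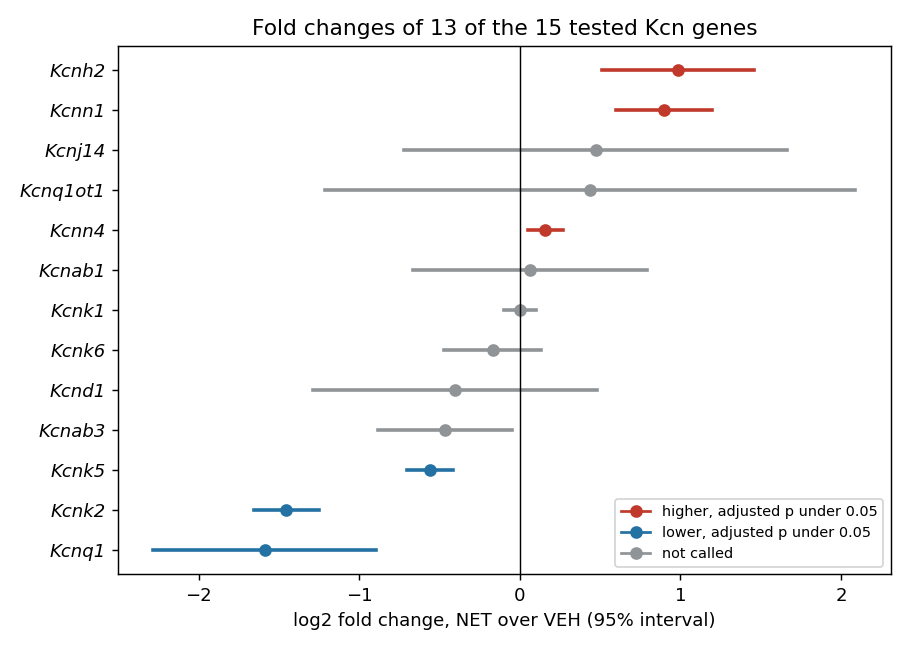
Log2 fold change of NET over VEH for 13 of the 15 tested Kcn rows, with its 95% interval from the edgeR fit. Kcnh2 and Kcnn1 lay to the right of 0 and Kcnq1, Kcnk2 and Kcnk5 to the left, while Kcnk1 lay at 0.00 with the narrowest interval.

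Among the leak channels, the mechanosensitive and lipid-sensitive Kcnk2 gave the smallest p-value of all Kcn rows. Kcnk2 had 8.03, 8.17 and 9.90 CPM in NET libraries, against 22.8, 23.0 and 26.1 CPM in VEH libraries. Every NET library was less than the lowest VEH library by a wide margin. The gene fell 2.74-fold, with a log2 fold change of -1.45 ± 0.0953 (standard error) and an adjusted p of 2.61e-09 in edgeR. Kcnk5, an acid-sensitive leak channel opened by alkaline medium outside the cell, had 21.3, 23.2 and 21.8 CPM in NET libraries, against 34.6, 31.3 and 31.6 CPM in VEH libraries. It fell 1.47-fold (log2 fold change -0.56 ± 0.0677, adjusted p = 4.53e-06), again with no overlap.

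The other tested leak channels did not pass. Kcnk1 had 127.0, 127.0 and 128.3 CPM in NET libraries, against 121.6, 129.8 and 130.3 CPM in VEH libraries. Its log2 fold change was 0.00 with a 95% interval from -0.10 to 0.10 (adjusted p = 0.973 in edgeR), so that any change of the channel gene with the highest level per kb was small. Kcnk6, a relative of Kcnk1 found on lysosomal and plasma membranes, had 4.28, 5.38 and 3.82 CPM in NET libraries, against 4.81, 5.51 and 4.70 CPM in VEH libraries, with an interval from -0.47 to 0.13 (adjusted p = 0.385). Of the class, 2 of 4 tested members fell and 0 rose, where 18.7% and 20.2% of all tested genes did.

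Both tested calcium-activated genes rose, where 20.2% of all tested genes did, and 2 genes are too few to describe the class. Kcnn1, a small-conductance channel best known from neurons, had 4.66, 4.38 and 4.34 CPM in NET libraries, against 2.50, 2.37 and 2.31 CPM in VEH libraries. The groups were well apart, and the gene rose 1.87-fold (log2 fold change 0.90 ± 0.141, adjusted p = 7.59e-05 in edgeR). Kcnn4 had 146.1, 147.9 and 144.6 CPM in NET libraries, against 121.8, 136.5 and 134.7 CPM in VEH libraries. Its rise was 1.12-fold (log2 fold change 0.16 ± 0.0515, adjusted p = 0.0214), the smallest of the called changes, and VEH replicate 1 lay lowest. That call was lost without VEH replicate 1 (log2 fold change 0.11, adjusted p = 0.155), without NET replicate 2 (0.15, adjusted p = 0.0546), without NET replicate 3 (0.16, adjusted p = 0.0614) and with scaling by library size alone (0.09, adjusted p = 0.159). The interval of the change ran from 0.05 to 0.27 on the log2 scale.

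Voltage-gated genes went both ways: of 5 tested 1 rose and 2 fell, where 20.2% and 18.7% of all tested genes did. Kcnq1, which forms the epithelial and cardiac channel of slow repolarisation with Kcne partners, had 0.312, 0.332 and 0.504 CPM in NET libraries, against 0.947, 1.15 and 1.45 CPM in VEH libraries. Those values rest on 14, 10 and 26 counts in NET libraries and on 63, 52 and 80 counts in VEH libraries. It fell 3.01-fold (log2 fold change -1.59 ± 0.328, adjusted p = 0.00095), the largest fall of the Kcn rows and, with an interval from -2.28 to -0.90, the least precise of the called ones.

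Kcnh2, the hERG channel of cardiac repolarisation, moved the other way. It had 2.05, 2.39 and 1.98 CPM in NET libraries, against 1.08, 1.28 and 0.871 CPM in VEH libraries. The groups did not overlap and the gene rose 1.98-fold (log2 fold change 0.99 ± 0.224, adjusted p = 0.00206 in edgeR). Kcnd1, which gives transient outward current, stood at 0.329 ± 0.0600 CPM in NET and 0.444 ± 0.166 CPM in VEH libraries (adjusted p = 0.486).

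**Figure D4:**
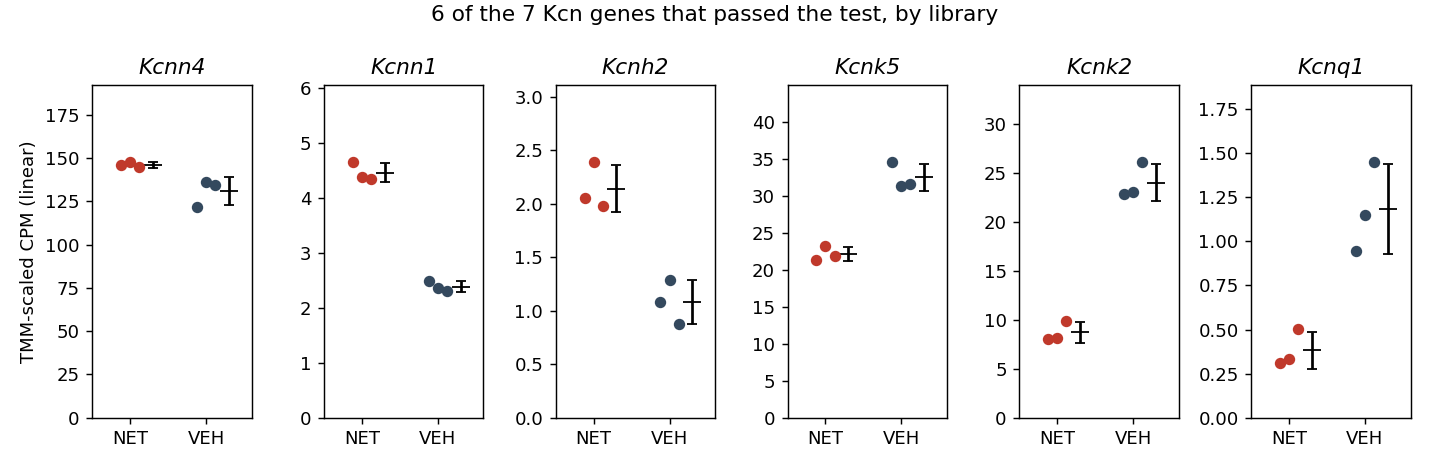
TMM-scaled CPM (linear axis from 0, its own scale for each gene) of 6 of the 7 Kcn genes that passed the test, a point per library, NET left of VEH, with mean and SD beside the points. No NET point of any of these 6 genes lay within the range of its VEH points.

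Of the inward rectifiers and auxiliary genes tested, 0 of 3 passed, where 38.9% of all tested genes did. Kcnj14, an inward rectifier, stood at 0.225 ± 0.110 CPM in NET and 0.155 ± 0.0562 CPM in VEH libraries, on 5 to 12 counts per library (adjusted p = 0.552 in edgeR). Kcnab3, a cytoplasmic beta subunit of voltage-gated channels, had 1.29, 1.66 and 1.71 CPM in NET libraries, against 2.12, 2.01 and 2.29 CPM in VEH libraries. The groups did not overlap, but with a log2 fold change of -0.47 and an adjusted p of 0.0713 it did not pass, and it passed with library size alone (-0.53, adjusted p = 0.0376). Kcnab1, another beta subunit, stood at 0.904 ± 0.419 CPM in NET and 0.844 ± 0.155 CPM in VEH libraries (adjusted p = 0.906).

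The noncoding Kcnq1ot1, an antisense RNA that silences imprinted genes around Kcnq1, had 2.90, 1.20 and 0.737 CPM in NET libraries, against 2.13, 0.619 and 0.726 CPM in VEH libraries. Replicate 1 stood highest in both groups, and the change did not pass (log2 fold change 0.44, interval from -1.21 to 2.09, adjusted p = 0.667). Its only exon covers exons of Kcnq1 on the other strand, and whether counting used strand is not stated by the labels; without strand, reads of this pair cannot be told apart. Kcnq1 itself was lowest, not highest, in replicate 1 of both groups.

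A further 30 rows had counts but were too low to test. Their counts summed over the 6 libraries ran from 1 to 56, 19 of them had 10 counts or fewer in all, and 14 had counts in 1 library alone. The inward rectifier Kcnj15 had 8, 4 and 12 counts in NET libraries against 18, 4 and 10 counts in VEH libraries, and the beta subunit Kcnab2 had 12, 4 and 6 counts in NET libraries against 8, 14 and 8 counts in VEH libraries. Kcne3, an auxiliary subunit that holds Kcnq1 channels open in secretory epithelia, had 0 counts in all 3 NET libraries and 10, 4 and 2 counts in VEH libraries. Of the alternatives run, it was called lower only with no filter on low counts (adjusted p = 0.0422 in edgeR). Kcne4 had 15, 0 and 2 counts in NET libraries and 0, 0 and 2 counts in VEH libraries, so that its counts lay almost wholly in NET replicate 1. Kcnj15 and Kcnab2 had a group mean of at least 10 counts, while Kcne3 and Kcne4 were picked on their values.

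In the coordinates of the deposited table, counted from 1, Kcnk2 spans positions 188940127 to 189134470 of chromosome 1, Kcnh2 24524587 to 24556602 of chromosome 5 and Kcnk5 20190125 to 20231877 of chromosome 14. Kcnn4 and Kcnq1 lie on chromosome 7 at 24069688 to 24086115 and 142660099 to 142980779, and Kcnk1 and Kcnn1 on chromosome 8 at 126721909 to 126757424 and 71294693 to 71315902. These spans hold exons and introns. The submitters' processing notes name mm10, but only 29 of 98 Kcn symbols matched overlapped their mm10 position, so the build of these spans is not settled.

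Exons of 9 of the 15 tested rows, and of 4 of the 7 called genes, overlap exons of a gene on the other strand. The partner of Kcnq1 is Kcnq1ot1, whose CPM was above that of Kcnq1 in all 3 NET libraries and in 1 VEH library, and the partners of Kcnk2 and Kcnn1 had far lower values than those genes. A430027H14Rik, which overlaps Kcnk2, had 0 counts, and A230052G05Rik, which overlaps Kcnn1, had at most 0.0664 CPM. Kcnn4, Kcnk5 and Kcnh2 had no overlapping partner. Counted without overlapping rows, 2 genes rose and 1 fell. Of all tested genes, overlapping ones included, 20.2% rose and 18.7% fell.

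Start regions were read from RefSeq promoter windows of GRCm38.p6, which run from 250 bases before to 50 bases after a gene's start and were at hand for 8 of the 15 tested rows. Since the series asks about TGF-beta activation, they were searched on both strands for the SMAD-binding letters CAGAC and for the palindrome GTCTAGAC, neither of which contains the other. CAGAC occurs in 49.6% of all 32851 such windows and GTCTAGAC in 0.213%. Of the 14 windows of these 8 tested rows 10 held CAGAC, as did 20 of 29 windows of rows with counts too low to test. Among rows with 0 counts 26 of 54 windows held it, and 0 windows of Kcn rows held GTCTAGAC. Several windows can belong to the same gene, so they are not independent, and a link of CAGAC to expression was not tested. Kcnk2 has 4 windows with 43.0% to 74.7% G and C and with 3 to 33 CpG pairs, and counts per gene do not tell these starts apart. The upstream window of Kcnk2 and one of its CpG-rich windows are shown as the extremes in G and C content of the gene that fell with the smallest p-value, Kcnk5 as the called gene with the most CAGAC matches (4), and Kcnn4 as the most abundant gene that rose (2 matches). Capitals mark CAGAC or its reverse complement, and each window is read 5′ to 3′ on the strand of the gene.
Kcnk2 upstream start, chr1:189402224-189402523, minus strand: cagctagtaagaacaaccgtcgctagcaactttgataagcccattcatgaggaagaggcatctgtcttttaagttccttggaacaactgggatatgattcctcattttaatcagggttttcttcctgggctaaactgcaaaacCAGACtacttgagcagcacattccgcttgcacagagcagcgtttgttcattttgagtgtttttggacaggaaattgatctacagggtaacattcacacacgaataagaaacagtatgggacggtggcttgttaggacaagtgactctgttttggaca
Kcnk2 CpG-rich start, chr1:189343658-189343957, minus strand: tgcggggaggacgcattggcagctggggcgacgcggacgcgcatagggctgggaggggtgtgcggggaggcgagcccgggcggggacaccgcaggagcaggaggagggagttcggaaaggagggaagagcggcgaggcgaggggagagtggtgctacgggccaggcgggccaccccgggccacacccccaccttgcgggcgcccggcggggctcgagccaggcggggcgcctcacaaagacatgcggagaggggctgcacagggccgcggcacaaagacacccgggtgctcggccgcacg
Kcnk5, chr14:20181733-20182032, minus strand: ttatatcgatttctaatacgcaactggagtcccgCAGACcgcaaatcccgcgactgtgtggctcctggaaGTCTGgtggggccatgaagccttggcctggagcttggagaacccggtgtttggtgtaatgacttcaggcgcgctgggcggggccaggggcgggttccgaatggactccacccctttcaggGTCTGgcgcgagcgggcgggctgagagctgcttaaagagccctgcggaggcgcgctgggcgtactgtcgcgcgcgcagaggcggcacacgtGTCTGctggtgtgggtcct
Kcnn4, chr7:24370013-24370312, plus strand: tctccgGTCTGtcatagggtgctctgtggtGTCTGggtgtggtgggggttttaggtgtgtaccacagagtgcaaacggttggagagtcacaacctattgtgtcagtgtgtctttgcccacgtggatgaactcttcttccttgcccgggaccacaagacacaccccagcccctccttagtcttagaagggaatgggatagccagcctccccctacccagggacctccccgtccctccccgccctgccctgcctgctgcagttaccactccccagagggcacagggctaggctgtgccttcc

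Other genes of potassium transport were read from lists set by role, though earlier results of these data were known when the lists were chosen. Over all tested genes 20.2% rose and 18.7% fell, and whether any of these lists differed from those shares was not tested. Of 9 partner subunits of potassium channels 2 were tested and both fell. Lrrc26, an auxiliary gamma subunit of the large-conductance channel, stood at 0.346 ± 0.0127 CPM in NET and 2.63 ± 0.437 CPM in VEH libraries, a 7.55-fold fall (adjusted p = 9.13e-08 in edgeR), although the pore gene Kcnma1 had 0 counts. Amigo1, a partner of voltage-gated channels, fell 1.22-fold, with 5.74 ± 0.174 CPM in NET and 7.01 ± 0.283 CPM in VEH libraries (adjusted p = 0.0420).

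Of 16 genes of the sodium-potassium pump and its relatives 8 were tested, 3 rose and 1 fell. Fxyd5, a regulator of the pump, rose 1.86-fold, with 73.0 ± 5.19 CPM in NET and 39.1 ± 3.91 CPM in VEH libraries (adjusted p = 5.27e-08 in edgeR). Fxyd3, another regulator, rose 1.83-fold, with 10.3 ± 2.23 CPM in NET and 5.57 ± 0.130 CPM in VEH libraries (adjusted p = 6.49e-05). Among 13 cation-chloride cotransporters and their kinases 9 were tested, 3 rose and 2 fell. Beside this list and the pump list stand the 20.2% and 18.7% of all tested genes that rose and fell. Slc12a5, a potassium-chloride exporter best known from neurons, rose 10.4-fold, with 10.5 ± 1.91 CPM in NET and 1.03 ± 0.143 CPM in VEH libraries (adjusted p = 6.89e-11), while Slc12a2, which imports sodium, potassium and chloride, fell 1.37-fold to 220 ± 10.7 CPM in NET libraries, against 300.1 ± 11.1 CPM in VEH libraries. Slc12a7, another potassium-chloride exporter, and Stk39, a kinase that switches these carriers, each rose 1.14-fold (adjusted p = 0.0192 and 0.0217 in edgeR).

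Calcium entry and release, which open Kcnn channels, split as well: of 8 genes tested 2 rose and 2 fell. Of all tested genes 20.2% rose and 18.7% fell. Itpr3, a calcium release channel of the endoplasmic reticulum, rose 1.57-fold to 785 ± 47.9 CPM in NET libraries, against 501 ± 12.5 CPM in VEH libraries (adjusted p = 3.62e-08 in edgeR), and Itpr1 rose 1.13-fold. The calcium sensors Stim2 and Stim1 fell 1.32-fold and 1.26-fold, and the other 4 genes, the Orai entry channels among them, did not pass. Of the 5 subunits of the volume-regulated anion channel, which works beside potassium channels when swollen cells shrink, Lrrc8c rose 1.57-fold and Lrrc8d and Lrrc8b fell 1.26-fold and 1.17-fold. The median log2 fold changes of the lists with 5 or more tested genes lay between -0.22 and 0.26, against -0.00 over all tested genes.

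The cells carried the epithelial markers that the label implies, with summed levels of Epcam, Krt8, Krt18, Cdh1, Krt7 and Cldn4 of 4801 to 5019 CPM in NET and 4210 to 4504 CPM in VEH libraries. Of these 6 genes 3 rose and 2 fell, where 20.2% and 18.7% of all tested genes did. NET-conditioned medium comes from neutrophils, so neutrophil genes were read too. The 10 neutrophil markers summed to 2.98 to 3.37 CPM in NET and 1.62 to 2.08 CPM in VEH libraries, of which S100a8 made 2.63 ± 0.148 CPM in NET and 1.38 ± 0.300 CPM in VEH libraries, and 5 of them, Elane, Camp, Ngp, Mmp8 and Retnlg, were at 0 in all 6 libraries. Of these neutrophil genes 2 were tested and 1, S100a8, rose. The 5 leukocyte markers summed to 87.9 to 97.1 CPM in NET and 35.0 to 39.3 CPM in VEH libraries, with 2 tested and 1 raised: Csf1r rose 3.34-fold, while Ptprc was at 0 in all NET libraries and Adgre1 in all 6. The 5 fibroblast markers summed to 59.2 to 67.9 CPM in NET and 42.8 to 48.7 CPM in VEH libraries, with 2 tested and 1 raised. Most of that sum was Pdgfra, with 49.2 ± 2.13 CPM in NET and 45.4 ± 3.37 CPM in VEH libraries. Pdgfra did not pass (adjusted p = 0.164 in edgeR). Col1a1 rose 11.3-fold, with 13.4 ± 2.48 CPM in NET and 1.18 ± 0.129 CPM in VEH libraries. Dcn and Lum were at 0 in all 6 libraries. The part of these genes in the Kcn values was not tested.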

How the data were processed

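Messenger RNA was sequenced in 6 libraries of 410.4 cells, 3 NET and 3 VEH, grouped by the labels' titles. Per the labels' protocols, the library kit keeps strand and selects mRNA. The authors deposited raw counts per gene symbol, made with STAR 2.7.10a and featureCounts of Subread 2.0.3 per the submitters' processing notes. Its strand setting and annotation are not given here. Between 74.8% and 78.4% of counts from 1 to 20 were even, so both mates appear counted. Counts were used as deposited, TMM-scaled and filtered by filterByExpr (minimum count 10), and tested with edgeR 4.0.16 (quasi-likelihood, robust, medium as the only term) in R 4.3.3. P-values were adjusted over all 13956 tested genes. The standard error is the log2 fold change over the square root of F, and values per kb used the table's gene length.

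The chi-square of raw counts between replicates of a group was 9.66 to 25.2 times its degrees of freedom. Counting both mates inflates this ratio, so the excess over sampling noise is smaller than these values. Each library counted once. The test was also run on simulated counts, with levels and dispersion taken from the fit to these data. Named are the tested Kcn genes, apart from a few items that are not reported here, untested ones with a group mean of at least 10 counts, and up to 4 genes per other list by p-value. The signature search took a threonine or serine, any residue, glycine, tyrosine, phenylalanine or leucine, and glycine. Serine and the promoters of genes changed under 2-fold were added after values were seen. Members and lists were chosen with earlier results of these data known. Protein sequences were not used here. The alternatives tried are given in the closing section (DESeq2 1.42.0, limma 3.58.1).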

Additional observations from a re-analysis of the deposited data

How the results depend on the processing

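The calls of Kcnk2, Kcnk5, Kcnn1, Kcnq1 and Kcnh2 kept their direction and side of the threshold in each other scaling, low-count filter, tool, block, halving of counts or left-out library under which they were tested. Of 104 such results of the 7 called genes 100 kept their call and 4, all of Kcnn4, did not. The number of Kcn genes that rose was 2 to 3 with a library left out, and the number that fell was 4 each time. With a fold change of at least 2 also required, a rule outside that count, Kcnn1, Kcnh2 and Kcnk5 lost their calls as well as Kcnn4, 0 Kcn genes rose, and over all genes 509 rose and 322 fell. Without members that overlap another gene, 1 Kcn gene fell, and fewer rows were counted there. With library size alone 2 Kcn genes rose and 5 fell, and of all genes 2106 rose and 3763 fell (35.9% of calls were rises there, against 52.0% with TMM). Of the genes that did not pass, Kcnk1, Kcnab1 and Kcnq1ot1 turned sign under some settings. Kcnk1 stayed near 0 throughout, while Kcnab1 and Kcnq1ot1 moved further with a library left out. Kcnk1 had a log2 fold change of -0.021 with upper-quartile factors, -0.066 with library size alone and -0.0098 with no low-count filter, and -0.030 to 0.020 with a library left out. Kcnab1 had -0.0070 with library size alone, -0.044 in limma-voom and -0.27 to 0.37 with a library left out. Kcnq1ot1 had -0.34 without NET replicate 1 and up to 1.26 without VEH replicate 1. The cause was not tested. With the replicate number as a block, 3 Kcn genes rose and 4 fell, as without it, and 2969 and 2713 of all genes did. Deviations of same-numbered libraries correlated with r of 0.118, -0.0593 and 0.0564, so the numbers were not taken as pairs. Depth limits the 30 untested rows.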

Other observations

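Kcnq1ot1 had its highest value in replicate 1 of both groups. Its change with medium was imprecise, with an interval from -1.21 to 2.09 on the log2 scale. Other long noncoding RNAs were read beside it after its values were seen. Malat1, a nuclear noncoding RNA, had 218, 188 and 136 CPM in NET libraries, against 170, 128 and 137 CPM in VEH libraries, so replicate 1 was highest in both groups there too. Neat1, another nuclear RNA, had 45.8, 56.8 and 52.3 CPM in NET libraries, against 50.4, 45.1 and 48.8 CPM in VEH libraries, with replicate 1 lowest in NET and highest in VEH libraries. Airn, an imprinted antisense RNA like Kcnq1ot1, had 0.915, 0.498 and 0.581 CPM in NET libraries, against 0.541, 0.664 and 0.490 CPM in VEH libraries, with no shared order.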
